A study of Rattus norvegicus with 3 samples.

Results

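The kidney at day 5 of ethylene glycol (EG) was set against the kidney at day 2, gene by gene, as the log2 signal on the EG day 5 array minus that on the EG day 2 array. These are 2 of the 3 arrays of the study, which hybridised kidney RNA of 1 control rat and 2 EG rats, all male, to Clariom S rat arrays, each rat on an array of its own. Both EG rats received EG orally at 8 g/kg; the labels can be read as dosing over 2 or 5 days or as kidneys taken on day 2 or 5 of 1 dose, and these cannot be told apart. Strain, age and the time of day of sampling are not given in the labels, and no treatment of the control rat is described. Because each group is 1 rat on 1 array, every difference below compares those 2 kidneys and has no error, no test and no replicate check.

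A gene was represented by the transcript cluster (the probes of 1 transcribed locus) with the brightest mean over the 3 arrays, among clusters naming 1 gene. That gave 20643 genes. Signals of 1058 olfactory receptor genes set the background level at their 95th percentile, 5.34 log2, and lower signals were set to it before a difference was taken. At least 1 EG array reached the level for 13207 genes, which are the genes compared, and both did for 12180. Where only 1 array did, the fold is a lower bound and is written as "at least". Signals are log2 and are given in the order control, EG day 2 and EG day 5.

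Ethylene glycol is oxidised, mainly in the liver, through glycolaldehyde, glycolate and glyoxylate to oxalate, which forms calcium oxalate crystals in the renal tubule. Proximal tubule cells injured by crystals or by the metabolites shed their brush border, switch on injury genes such as Havcr1 and proliferate to replace lost cells. Interstitial fibroblasts and macrophages act in the repair that follows, laying down and clearing collagen matrix.

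The tissue label was borne out by the nephron's own markers. Lrp2, the endocytic receptor megalin of the proximal tubule, read 19.19, 18.18 and 18.57. Umod, the thick ascending limb's uromodulin, read 18.79, 18.69 and 18.67. Aqp2, the water channel of principal cells, read 12.61, 12.64 and 12.95. Adrenal Star, urothelial Upk2 and Upk1b, hepatic Cps1 and adipocyte Plin1 were under the background level on all 3 arrays. Other markers of liver and fat were not: Alb read 6.46, 7.03 and 8.19, adipocyte Adipoq 8.76, 9.14 and 9.81 and Fabp4 7.36, 6.88 and 8.47. Of the markers looked at, podocyte Nphs1 and distal convoluted tubule Pvalb stood close to the background level, at 5.52, 5.62 and 5.31 and at 5.72, 5.10 and 5.57. In RNA of whole tissue, fewer cells of a type and less RNA per cell cannot be told apart.

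More genes were lower than higher at day 5. Of the 13207 genes compared, 299 were 2-fold or more higher (2.26%) and 452 were 2-fold or more lower (3.42%), so 751 (5.69%) lay 2-fold or more apart and 39.8% of those were higher. The 2-fold shares over all genes are those to set beside the list counts below. At 4-fold the counts were 13 higher (0.0984%) and 30 lower (0.227%). The median difference was -0.04 log2, with quartiles at -0.36 and 0.26. For orientation, with no background level set, 3.5% of the olfactory receptor genes differed by 2-fold or more. On that same footing 509 of all 20643 genes were 2-fold or more higher and 595 lower. Since most olfactory receptor signals lie under the background level, their share does not gauge the spread of brighter genes. The reference genes differed little for Actb, which encodes beta-actin (19.67, 19.85 and 19.93, at the top of the scale), and more for Gapdh, a glycolytic enzyme (17.10, 17.25 and 16.63, 1.54-fold lower at day 5).

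**Figure D1:**
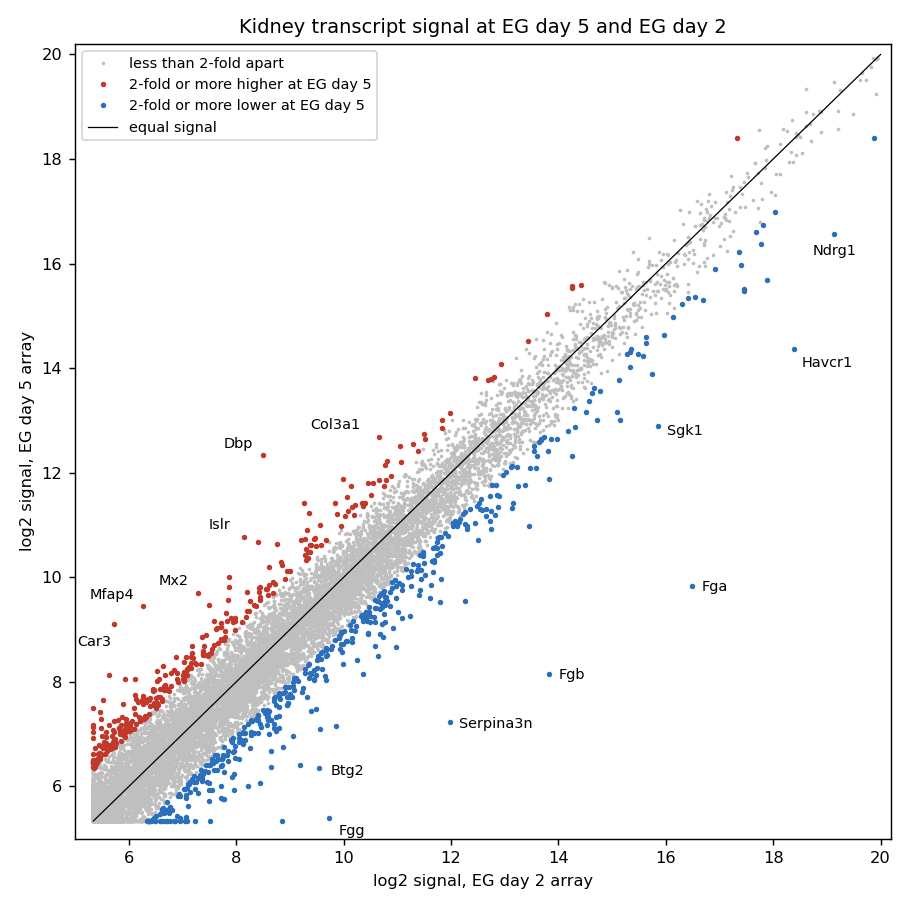
Log2 signal of the 13207 compared genes on the EG day 2 array (horizontal axis) and the EG day 5 array (vertical axis), 1 point per gene, with signals under 5.34 drawn at that level. Red points are the 299 genes 2-fold or more higher at day 5, blue points the 452 lower, and the line marks equal signal; Fga, Fgb, Serpina3n and Fgg lie farthest below the line and Dbp farthest above it.

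The balance of the directions depended on brightness. Among the 4062 genes with a mean EG signal under 7, 2.66% were 2-fold higher and 2.12% lower. Between 10 and 13, 1.62% of 2776 genes were higher and 4.36% lower. Among the 880 genes at 13 or above, 1.25% were higher and 5.80% lower. For a list of bright genes the shares of these classes are the closer comparison. The median difference was 0.05 in the dimmest class, -0.05 in the next, -0.15 between 10 and 13 and -0.13 in the brightest.

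**Figure D2:**
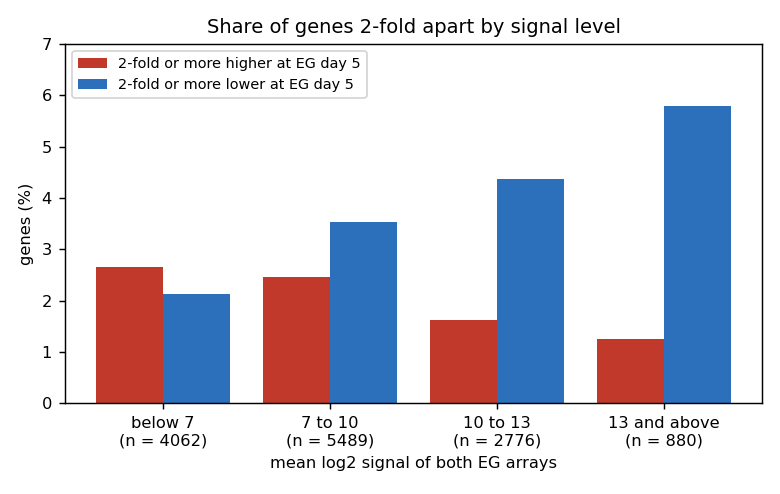
Percent of genes 2-fold or more higher (red) and lower (blue) at EG day 5 than at EG day 2, in 4 classes of the mean log2 signal of both EG arrays, with the number of genes in each class. The red bars run down from 2.66% to 1.25% and the blue bars up from 2.12% to 5.80% from the dimmest class to the brightest.

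The largest differences were in fibrinogen. The 3 chains of this clotting protein, which the liver makes for the plasma, were 100-fold, 50.9-fold and 20.3-fold lower at day 5 for Fga, Fgb and Fgg. Fga, the alpha chain, read 7.72 on the control array, 16.49 at day 2 and 9.84 at day 5. Fgb, the beta chain, read 6.06, 13.83 and 8.16, and Fgg, the gamma chain, read 4.12, 9.73 and 5.39. All 3 were highest at day 2, and at day 5 each still read more than the control array, Fgg just above the background level. Of the 7 measured genes in the list of liver, adrenal and urothelial genes, 4 were higher at day 5 than at day 2. The other 3 were lower, with -0.19 log2 as the lowest difference. Albumin (Alb) read 6.46, 7.03 and 8.19 and transthyretin (Ttr) 5.61, 5.16 and 6.49. The apolipoprotein Apoa2 read 5.82, 5.35 and 6.15 (1.74-fold higher) and the cytochrome Cyp3a2 5.06, 5.24 and 5.77 (at least 1.35-fold higher). The protease inhibitor Serpina1 read 4.52, 5.62 and 5.43 (1.14-fold lower) and the cytochrome Cyp2c11 7.54, 6.86 and 6.81 (1.04-fold lower). Cps1 stayed under the background level. Some genes outside that list that the liver also expresses were lower at day 5, among them Serpina3n (27.1-fold) and Igfbp1 (6.59-fold), both given below. The part of liver-type cells in the fibrinogen signal was not tested.

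The 3 fibrinogen genes are neighbours on rat chromosome 2, and the promoters of Fga and Fgb are shown because these genes have the widest differences. In the RefSeq table of build GRCr8 they occupy chr2:170652929-170660372 (Fgg), chr2:170672169-170679572 (Fga) and chr2:170693966-170700875 (Fgb). The 250 bases before a start site are printed 5′ to 3′ on the gene's strand, from RefSeq GRCr8, for Fga at chr2:170671919-170672168 on the plus strand (the first of its 2 starts in the table) and Fgb at chr2:170700876-170701125 on the minus strand. Capitals mark TTCNNNGAA, the letters STAT3 binds downstream of interleukin 6 family cytokines, or TTNNGNAA, a core bound by C/EBP factors, on either strand.
Fga: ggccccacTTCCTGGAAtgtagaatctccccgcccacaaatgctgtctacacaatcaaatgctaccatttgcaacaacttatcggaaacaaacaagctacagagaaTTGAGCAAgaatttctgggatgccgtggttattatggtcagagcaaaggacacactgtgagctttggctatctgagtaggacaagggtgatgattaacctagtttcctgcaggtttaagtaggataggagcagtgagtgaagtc
Fgb: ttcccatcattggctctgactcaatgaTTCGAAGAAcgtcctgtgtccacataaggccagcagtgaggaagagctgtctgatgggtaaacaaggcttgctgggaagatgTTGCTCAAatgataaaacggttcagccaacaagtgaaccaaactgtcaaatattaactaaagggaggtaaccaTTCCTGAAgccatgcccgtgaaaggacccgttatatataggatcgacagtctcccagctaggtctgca
The Fga window holds TTCNNNGAA starting 242 bases before the start and TTNNGNAA 144 bases before it. The Fgb window holds TTCNNNGAA at 223 and TTNNGNAA at 141 and 68 bases before the start, and no 2 of these matches overlap. The Fgg window is not shown and holds neither set of letters. Its start in the promoter table lies inside the gene's span given above, as does the second Fga start. The second Fga start, whose window overlaps the one printed, has TTNNGNAA but no TTCNNNGAA. Of 33469 rat promoter windows of this length, 7.67% hold TTCNNNGAA and 37.2% hold TTNNGNAA. Of the 17 measured genes of the coagulation list with a window, 3 held TTCNNNGAA and 8 held TTNNGNAA. A match is a description of letters and not a site.

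The rest of the coagulation list was divided. Of its 23 measured members, 1 was 2-fold or more higher and 6 lower, and the median difference was -0.08. Besides the 3 chains, the lower ones included F3, the tissue factor that starts clotting (12.58, 12.74 and 10.93, 3.51-fold), and Kng1, kininogen (6.64, 9.08 and 7.84, 2.36-fold). F3 thus read less at day 5 than on the control array, whereas Kng1 read more. The higher one was A2m, the protease trap alpha-2-macroglobulin, which read 4.63, 6.12 and 7.75 and was 3.10-fold higher.

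Genes of the acute phase, and of the interleukin 6 family signalling through the receptor chain gp130 and STAT3 that induces it, were mostly lower. Of 18 measured members, 7 were 2-fold or more lower and 1, again A2m, was higher, with a median of -0.62. By any amount 13 were lower and 5 higher. A further 6 of the 24 matched members were under the background level on both EG arrays. The acute phase proteins Hp and Crp, chosen after their values were seen, were among these. Serpina3n, a secreted protease inhibitor, read 6.0, 11.99 and 7.23 and was 27.1-fold lower; a second cluster of the gene stayed under the background level on all 3 arrays. Socs3, the feedback inhibitor of the same receptor, read 5.85, 9.85 and 7.15 (6.50-fold lower). Osmr, the oncostatin M receptor, read 10.63, 12.65 and 11.17 (2.79-fold lower). These 3 peaked on the day 2 array and at day 5 remained above the control array.
The cytokine Lif read 4.44, 7.51 and 4.94, at least 4.50-fold lower at day 5, when it was back under the background level. Bcl3, an atypical IκB protein, read 4.69, 7.07 and 5.39 and was 3.20-fold lower. Of the 14 measured acute phase genes with a promoter window, 1 held TTCNNNGAA, which was Serpina3n, against 7.67% of all windows.

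Complement, the plasma cascade that opsonises and lyses targets, did not follow fibrinogen. Of 24 measured components and regulators none was 2-fold higher, 1 was 2-fold lower and the median was 0.33. The central component C3 read 5.44, 7.96 and 7.20 (1.69-fold lower). The protease C1s read 8.54, 9.50 and 10.39 (1.85-fold higher), and the anaphylatoxin receptor C3ar1 6.55, 7.24 and 8.04 (1.74-fold higher). C3 was therefore highest at day 2 and the other 2 at day 5. The 2-fold lower gene was Cd59, which shields host membranes from lysis, at 15.92, 15.64 and 14.49 (2.22-fold).

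**Figure D3:**
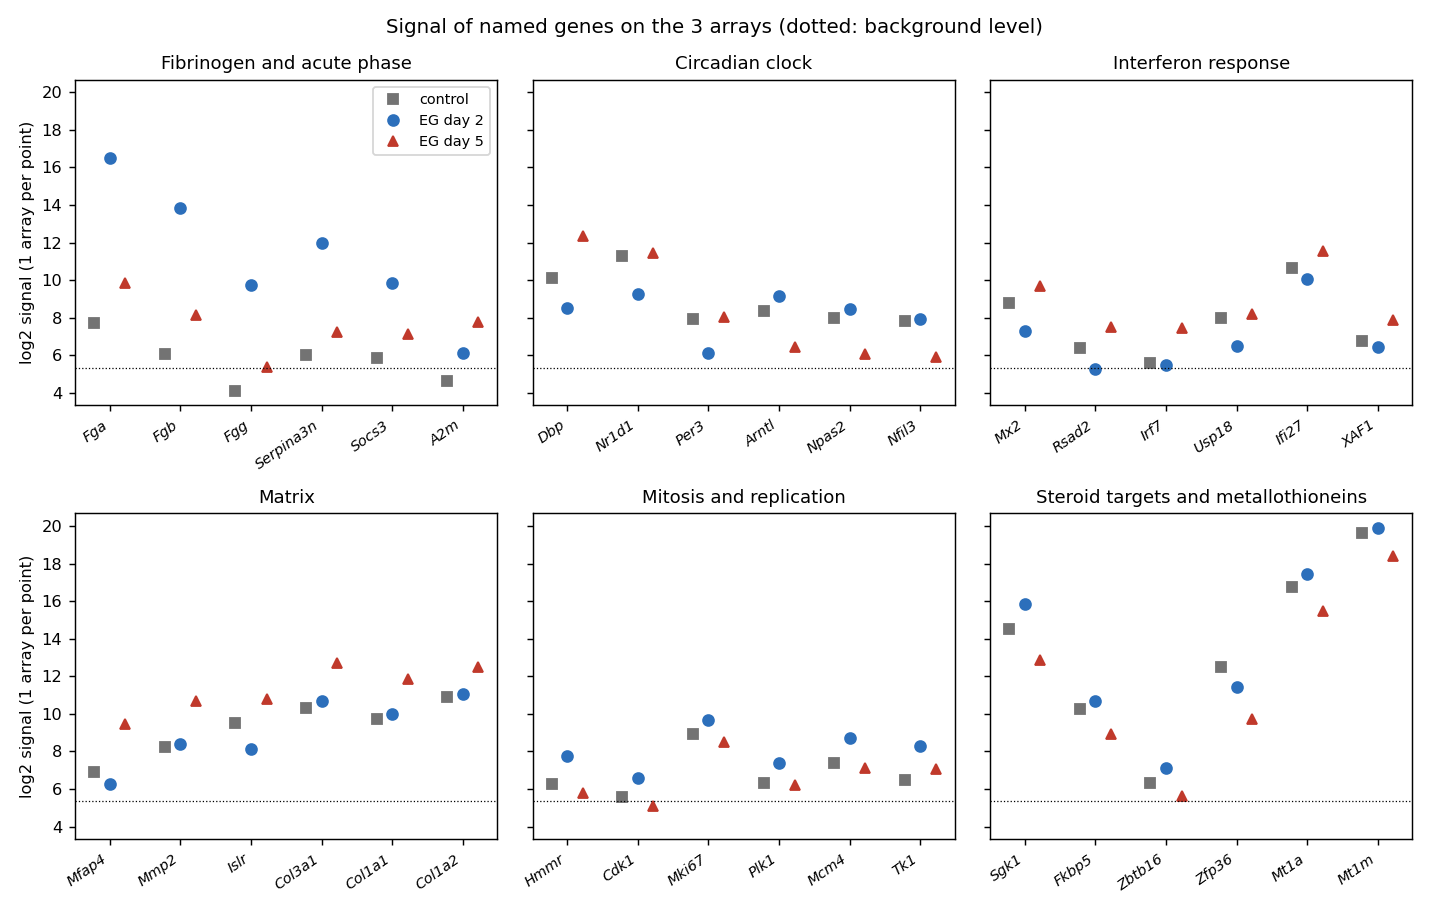
Log2 signal of 36 genes in 6 groups on the control (grey squares), EG day 2 (blue circles) and EG day 5 (red triangles) arrays, 1 array per point, with the background level of 5.34 dotted. In the fibrinogen and acute phase panel every gene but A2m has its highest point at day 2, while in the interferon and matrix panels every gene has its highest point at day 5.

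Tubular injury genes split into a set that was lower at day 5 and a set that held its level. Havcr1, which encodes the shed injury marker KIM-1, read 5.92, 18.39 and 14.36 and was 16.3-fold lower at day 5, still far above the control array. Tnfrsf12a, the TWEAK receptor, read 8.02, 11.24 and 9.27 (3.92-fold lower). Timp1, an inhibitor of matrix metalloproteases, read 5.67, 8.28 and 6.98 (2.46-fold lower). Cd24, a surface glycoprotein of regenerating tubule cells, read 15.08, 17.36 and 16.22 (2.20-fold lower). All 4 had their highest signal at day 2.
Other injury genes lay closer together on the EG arrays. Spp1, osteopontin, which coats crystals, read 11.87, 18.43 and 18.43, the same at both days. Clu, the chaperone clusterin, read 9.54, 17.20 and 17.29, and Lcn2, the siderophore-binding lipocalin NGAL, 5.73, 12.62 and 12.08 (1.45-fold lower). Krt19, a keratin of simple epithelia, was the 1 injury gene 2-fold or more higher, at 6.88, 7.15 and 8.26 (2.16-fold). In all, 1 of 27 measured injury genes was 2-fold higher and 6 were lower, with a median of -0.13. The other 2 lower ones were Lif and Cdkn1a, each under the background level at day 5.

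Immediate early genes, transcribed within minutes of a stimulus without new protein, were lower in 26 of 31 measured members, 6 of them by 2-fold or more and none higher by 2-fold, with a median of -0.28. Btg2, an antiproliferative gene that p53 also induces, read 9.98, 9.55 and 6.36 and was 9.13-fold lower. Zfp36, which destabilises cytokine mRNAs, read 12.50, 11.43 and 9.75 (3.20-fold lower). Egr1, a zinc finger transcription factor, read 16.48, 13.48 and 12.10 (2.60-fold lower). For these 3 the control array was the highest and day 5 the lowest. Dusp6, a phosphatase of ERK kinases, read 10.84, 11.73 and 10.43 (2.46-fold lower), Ctgf, a matricellular growth factor, 10.51, 11.39 and 10.15 (2.36-fold lower) and Junb, an AP-1 subunit, 8.46, 8.44 and 7.19 (2.38-fold lower).
Targets of p53, a transcription factor that DNA damage activates, gave 5 of 18 measured members 2-fold or more lower and 1 higher, with a median of -0.06. Cdkn1a, the cell cycle inhibitor p21, read 6.05, 6.84 and 5.11 and was at least 2.83-fold lower. Gadd45a, a stress-induced growth arrest gene, read 12.80, 12.90 and 11.56 (2.53-fold lower) and Tp53inp1, a p53-induced nuclear protein, 11.02, 11.69 and 10.34 (2.55-fold lower). Ccng1, cyclin G1, stood at the 2-fold line (11.49, 11.76 and 10.76). Ccnd1, the G1 cyclin D1, was the higher one at 11.01, 10.80 and 12.22 (2.68-fold).

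Glucocorticoid and mineralocorticoid targets were lower as a list, with 7 of 27 measured members 2-fold or more lower, none higher and a median of -0.57. Sgk1, the kinase that raises sodium channel activity in the distal nephron, read 14.52, 15.86 and 12.89 and was 7.84-fold lower, above the control array at day 2 and below it at day 5. Fkbp5, a co-chaperone of the steroid receptors, read 10.26, 10.68 and 8.92 (3.39-fold lower). Zbtb16, a steroid-induced zinc finger repressor, read 6.30, 7.11 and 5.63 (2.79-fold lower). All 3 were lowest at day 5. The list also holds the metallothioneins, small metal-binding proteins that steroids, zinc and cytokines induce. Mt1a read 16.73, 17.45 and 15.47 (3.94-fold lower), and its second cluster read 15.79, 16.59 and 14.47. Mt1m read 19.63, 19.88 and 18.41 (2.77-fold lower); probes of the metallothioneins can share signal and Mt1m stands near the top of the scale, so its fold is uncertain.
Metal handling as a whole gave 6 of 23 measured members 2-fold or more lower and 3 higher, with a median of -0.63. The zinc and iron importer Slc39a14 read 8.64, 9.99 and 8.34 (3.14-fold lower) and the zinc exporter Slc30a1 11.93, 12.54 and 11.30 (2.36-fold lower). Hmox1, which degrades haem, read 7.81, 7.65 and 6.31 (2.53-fold lower), and Steap1, of the STEAP protein family, 5.89, 6.90 and 5.43 (2.77-fold lower). On the higher side stood its relative Steap3 (6.85, 5.84 and 7.01, 2.25-fold), the ferroxidase hephaestin, Heph (7.56, 7.26 and 8.35, 2.13-fold), and Aco1, whose protein doubles as the iron regulatory protein IRP1 (14.56, 13.43 and 14.52, 2.13-fold).

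Genes of the circadian clock held both the highest difference of all, in Dbp, and 2 of the 15 lowest among genes measured on both arrays, in Arntl and Npas2. The clock is a feedback loop in which BMAL1 (Arntl) with CLOCK or NPAS2 drives the Per, Cry, Nr1d and Dbp genes, and the REV-ERB proteins of the Nr1d genes repress Arntl in turn. Of 20 measured members 7 were 2-fold or more higher and 3 lower, and the median difference was 0.20, within a range from -2.76 to 3.84.
Dbp, a clock output transcription factor, read 10.11, 8.50 and 12.34 and was 14.3-fold higher at day 5, with the control array in between. Nr1d1, which encodes REV-ERB alpha, read 11.29, 9.26 and 11.42 (4.47-fold higher), and Per3, a period protein, 7.93, 6.12 and 8.06 (3.84-fold higher). In both, the day 5 signal lay close to that of the control array and the day 2 array was the low one.
Arntl read 8.37, 9.18 and 6.42 and was 6.77-fold lower at day 5. Npas2, whose protein can pair with BMAL1, read 7.99, 8.45 and 6.06 (5.24-fold lower), and Nfil3, a repressor of the genes DBP activates, 7.84, 7.95 and 5.93 (4.06-fold lower). For these 3 the day 5 array was the low one. These 3 activators and repressors thus stood in the opposite order to Dbp, Nr1d1 and Per3 on the 2 EG arrays. Not every gene of the loop did: Per1 and Cry1, chosen after their values were seen, read 11.63, 11.08 and 10.90 and 4.99, 5.96 and 5.17, each lower at day 5 than at day 2. Whether the 2 kidneys were taken at the same clock time is not given in the labels.
Promoter windows of a gene from each arm are shown, Nr1d1 at chr10:84229455-84229704 on the minus strand (the second of its 2 starts in the table) and Arntl, named Bmal1 in RefSeq, at chr1:176766078-176766327 on the plus strand, both in GRCr8. Capitals mark CACGTG, the E-box that BMAL1 with its partners binds, or AGGTCA, the half-site of REV-ERB and ROR receptors, on either strand.
Nr1d1: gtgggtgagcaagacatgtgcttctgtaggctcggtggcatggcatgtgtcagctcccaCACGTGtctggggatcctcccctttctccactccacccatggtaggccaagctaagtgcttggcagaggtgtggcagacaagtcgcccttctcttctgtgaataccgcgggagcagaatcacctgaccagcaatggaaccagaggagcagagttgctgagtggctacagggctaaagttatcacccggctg
Arntl: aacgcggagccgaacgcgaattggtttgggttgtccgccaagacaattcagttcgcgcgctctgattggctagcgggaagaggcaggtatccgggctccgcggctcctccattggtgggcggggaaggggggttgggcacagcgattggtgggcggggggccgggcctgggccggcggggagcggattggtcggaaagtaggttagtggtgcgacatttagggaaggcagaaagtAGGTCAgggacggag
The Nr1d1 start printed is the one with a match, CACGTG 191 bases before it, and the window of the other Nr1d1 start holds neither set of letters, nor do those of Dbp and Npas2; the Arntl window holds AGGTCA 15 bases before its start. Of all 33469 windows 5.59% hold CACGTG and 14.1% hold AGGTCA. Among the 6 of 7 higher clock genes with a window, 1 held CACGTG, and among the 3 lower ones none did. AGGTCA was held by 1 of those 6, Nr1d2, and by 1 of the 3 lower ones, Arntl.

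Cell division genes were lower at day 5. Of 46 measured genes of mitosis and cytokinesis 9 were 2-fold or more lower and none higher, 36 were lower by any amount and the median was -0.68. Hmmr, a spindle-associated hyaluronan receptor, read 6.26, 7.78 and 5.77 (4.03-fold lower). Mki67, which encodes the proliferation marker Ki-67, read 8.91, 9.67 and 8.49 (2.27-fold lower), and Plk1, the polo-like mitotic kinase, 6.32, 7.38 and 6.24 (2.20-fold lower). Cdk1, the kinase that starts mitosis, read 5.60, 6.60 and 5.08, at least 2.39-fold lower. Ect2, which directs the cleavage furrow, read 6.21, 7.52 and 6.41 (2.16-fold lower), and Cdca2, a chromatin phosphatase scaffold, 5.74, 6.63 and 5.21 (at least 2.45-fold lower). Each of these 6 was highest at day 2, and at day 5 all but Ect2 read below the control array.
DNA replication genes gave 5 of 33 measured members 2-fold or more lower and 1 higher, with 28 lower by any amount and a median of -0.43. The helicase subunits Mcm4 (7.36, 8.70 and 7.11), Mcm3 (5.53, 6.59 and 5.48) and Mcm6 (6.15, 7.57 and 6.47) were 3.01-fold, 2.16-fold and 2.14-fold lower. Tk1, the thymidine kinase of S phase, read 6.50, 8.28 and 7.04, 2.36-fold lower but above the control array, and Rfc1, the clamp loader's large subunit, 9.17, 9.70 and 8.52 (2.27-fold lower). Gins2, of the replicative helicase complex, went the other way at 5.76, 5.37 and 6.74 (2.58-fold higher), from a day 2 signal next to the background level. Among the genes bounded by the background level, Plk4, the kinase of centriole duplication, read 5.80, 6.95 and 5.09 (at least 3.05-fold lower), Dtl, a replication-coupled ubiquitin ligase subunit, 4.87, 7.23 and 4.87 (at least 3.71-fold lower), and Primpol, a repriming polymerase, 4.92, 6.76 and 5.00 (at least 2.68-fold lower).
Windows of 3 of the lower mitotic genes are shown because mitotic promoters are known for 2 short elements, the CCAAT box bound by NF-Y and TTTGAA, the cell cycle homology region. They are Hmmr at chr10:25665216-25665465 on the minus strand, Cdk1 at chr20:19265043-19265292 on the plus strand and Mki67 at chr1:199952594-199952843 on the minus strand, all GRCr8. Capitals mark either element on either strand, so CCAAT also appears as ATTGG.
Hmmr: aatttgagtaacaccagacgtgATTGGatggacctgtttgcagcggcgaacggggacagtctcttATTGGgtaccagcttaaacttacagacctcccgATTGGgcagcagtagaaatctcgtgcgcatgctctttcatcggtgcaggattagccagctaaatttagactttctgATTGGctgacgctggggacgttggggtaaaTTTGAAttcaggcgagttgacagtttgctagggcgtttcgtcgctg
Cdk1: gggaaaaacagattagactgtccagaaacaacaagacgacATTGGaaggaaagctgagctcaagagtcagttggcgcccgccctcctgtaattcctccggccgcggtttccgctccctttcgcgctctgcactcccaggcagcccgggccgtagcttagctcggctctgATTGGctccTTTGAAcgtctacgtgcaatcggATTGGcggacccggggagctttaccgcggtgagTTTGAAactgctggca
Mki67: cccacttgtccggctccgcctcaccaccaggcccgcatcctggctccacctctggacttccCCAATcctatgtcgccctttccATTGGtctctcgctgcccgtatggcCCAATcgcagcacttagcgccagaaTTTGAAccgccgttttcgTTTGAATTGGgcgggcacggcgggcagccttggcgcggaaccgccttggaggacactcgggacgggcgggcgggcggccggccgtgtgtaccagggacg
The Hmmr window holds 4 CCAAT boxes and 1 TTTGAA, Cdk1 3 and 2, and Mki67 4 and 2, where 1 TTTGAA shares a base with the CCAAT box next to it. Of the 8 lower mitotic genes with a window 7 held TTTGAA and all 8 held CCAAT, against 17 and 31 of the 39 measured mitotic genes with a window. Over all 33469 windows the shares were 16.2% and 34.0%.

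Interferon response genes were higher. Of 38 measured members 11 were 2-fold or more higher and none lower, 31 were higher by any amount, and the median was 0.60. Mx2, an antiviral dynamin-like GTPase, read 8.77, 7.29 and 9.71 (5.35-fold higher). Irf7, the transcription factor that amplifies type I interferon, read 5.61, 5.46 and 7.43 (3.92-fold higher). Rsad2, the antiviral enzyme viperin, read 6.41, 5.25 and 7.51, at least 4.50-fold higher. Mx2 and Rsad2 stood below the control array at day 2 and above it at day 5, while Irf7 lay near the background level on the control and day 2 arrays.
Usp18, which removes the ubiquitin-like ISG15, read 7.97, 6.52 and 8.20 (3.20-fold higher), with day 2 the low array. Ifi27, an interferon-induced mitochondrial protein, read 10.66, 10.06 and 11.54 (2.79-fold higher) and XAF1, an antagonist of the apoptosis inhibitor XIAP, 6.77, 6.45 and 7.87 (2.68-fold higher). Both had their highest signal at day 5.
The Irf7 window at chr1:205800024-205800273 and the Rsad2 window at chr6:48788121-48788370, both on the minus strand in GRCr8, are shown with GAAA, any 2 bases and GAAA again, the core of the interferon-stimulated response element, in capitals on either strand.
Irf7: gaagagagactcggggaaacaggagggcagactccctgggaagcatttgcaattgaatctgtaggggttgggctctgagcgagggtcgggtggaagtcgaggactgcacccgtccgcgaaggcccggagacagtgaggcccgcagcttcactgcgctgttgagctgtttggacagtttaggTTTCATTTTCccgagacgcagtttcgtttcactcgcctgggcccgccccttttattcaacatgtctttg
Rsad2: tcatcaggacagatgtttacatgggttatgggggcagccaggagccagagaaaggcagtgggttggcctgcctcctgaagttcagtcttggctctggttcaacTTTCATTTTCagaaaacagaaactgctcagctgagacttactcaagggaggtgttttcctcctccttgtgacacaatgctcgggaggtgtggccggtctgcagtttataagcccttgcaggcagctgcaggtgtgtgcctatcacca
The match starts 69 bases before the Irf7 start and 147 bases before that of Rsad2, and reads the same 10 letters in both. It was present in 5 of the 6 higher interferon genes with a window, in 16 of the 28 measured ones and in 3.41% of all windows.
Antigen presentation genes gave 4 of 21 measured members 2-fold or more higher and none lower, with a median of 0.34. All 4 belong to the class II pathway, by which professional antigen-presenting cells show peptides to helper T cells: the invariant chain Cd74 (14.26, 14.42 and 15.60, 2.27-fold) and the class II chains RT1-Ba (7.28, 7.65 and 9.03, 2.60-fold), RT1-Bb (7.08, 6.73 and 7.85, 2.17-fold) and RT1-Da (11.02, 11.07 and 12.20, 2.19-fold). Their signals on the control and day 2 arrays lay within 0.37 log2 of each other. Class II probes may read related chains, which makes the value of each chain uncertain.

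Fibrillar collagens and other matrix genes were higher. Of 45 measured members of the matrix list 11 were 2-fold or more higher and 2 lower, 35 were higher by any amount, and the median was 0.54. Col3a1, the type III collagen chain of reticular fibres, read 10.33, 10.66 and 12.69 (4.08-fold higher). Col1a1 and Col1a2, the type I collagen chains, read 9.71, 9.98 and 11.88 (3.73-fold) and 10.92, 11.05 and 12.52 (2.77-fold). A second Col1a2 cluster read 9.12, 9.54 and 10.75. For these chains the control and day 2 arrays were close and the day 5 array was the high one.
Mfap4, a microfibril-associated protein of elastic fibres, read 6.90, 6.27 and 9.45 and was 9.06-fold higher. Col15a1, a basement membrane zone collagen, read 6.94, 7.06 and 8.47 (2.66-fold higher), and its dimmer cluster 4.91, 5.62 and 6.26. Sparcl1, a matricellular glycoprotein, read 8.51, 8.44 and 9.82 in its brighter cluster but 7.61, 7.75 and 7.31 in the other, so its direction rests on the cluster chosen. The 2 lower genes were Col4a3, a type IV chain of the mature glomerular basement membrane (12.68, 12.27 and 11.02, 2.38-fold), and Vcan, the proteoglycan versican (4.81, 6.48 and 5.21, at least 2.20-fold).
Proteases that remodel matrix, and their inhibitors, differed in both directions, with 4 of 27 measured members 2-fold or more higher, 3 lower and a median of 0.25. Mmp2, gelatinase A, read 8.22, 8.40 and 10.67 (4.82-fold higher). Its inhibitor Timp2 read 10.30, 10.89 and 11.94 (2.07-fold higher), Mmp23, a membrane-anchored metalloprotease, 6.05, 6.53 and 7.59 (2.08-fold) and Adamts12, a metalloprotease with thrombospondin repeats, 7.83, 7.49 and 8.53 (2.06-fold). The lower ones included Timp1, given above, and Adamts4, an aggrecan-cleaving protease (6.21, 7.67 and 6.53, 2.20-fold).
Fibroblast markers stood beside these genes and share collagens with the matrix list. Of 26 listed, 24 were matched and 17 measured; 8 were 2-fold or more higher and none lower, with a median of 0.61, and the log2 signal summed over the 17 was 170.1, 174.3 and 186.7. Pdgfrb, a receptor of mural cells and fibroblasts, read 9.51, 10.09 and 11.27, while Pdgfra, the fibroblast receptor, had already reached 13.02 at day 2 from 11.72 and read 13.19 at day 5. Dpt, dermatopontin, read 14.14, 13.79 and 15.04 (2.38-fold higher), Pi16, an adventitial fibroblast marker, 7.24, 6.32 and 7.61 (2.45-fold) and Tcf21, a stromal and podocyte transcription factor, 8.33, 9.30 and 10.54 (2.36-fold). 7 of the listed markers did not reach the background level, Postn and Fap among them, both chosen for mention after their values were seen. How far these markers account for the collagen differences was not tested.
Smooth muscle and pericyte markers gave 1 of 13 measured members 2-fold higher and none lower, with a median of 0.37. That was Tpm2, a tropomyosin (8.50, 7.79 and 8.98, 2.28-fold), whose second cluster read 5.68, 5.57 and 6.73.
Islr, a secreted leucine-rich protein of mesenchymal cells, read 9.50, 8.15 and 10.78 and was 6.19-fold higher, below the control array at day 2 and above it at day 5.

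**Figure D4:**
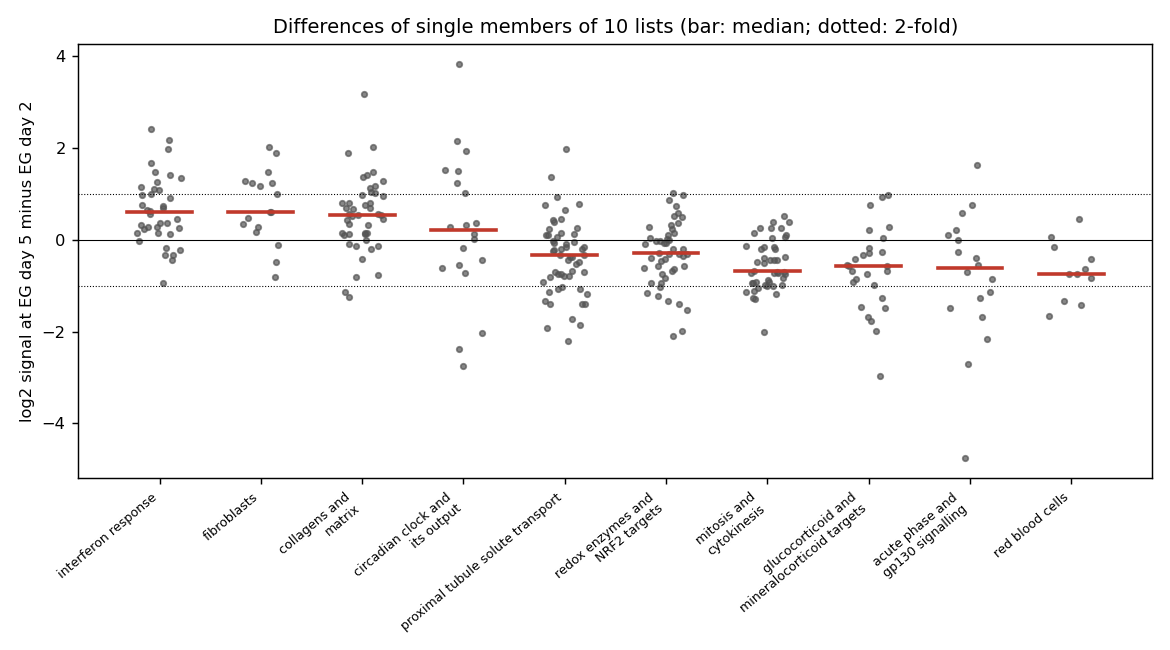
Log2 signal at EG day 5 minus EG day 2 for each measured member of 10 gene lists, 1 point per gene, with the list median as a bar and 2-fold marked by dotted lines. The interferon, fibroblast and matrix points lie mostly above 0, the mitosis, steroid target, acute phase and red blood cell points mostly below, and the clock points spread from -2.76 to 3.84.

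Markers of immune cells did not move as 1 block. Of 29 measured macrophage and monocyte genes 1 was 2-fold or more higher and 4 lower, and the median difference was 0.07; 10 of the 39 matched were under the background level, and the summed log2 signal of the 29 was 206.9, 235.3 and 236.4. Adgre1, a macrophage surface antigen, read 6.18, 5.92 and 8.05 (4.38-fold higher), and Cd68, a lysosomal macrophage protein, 7.60, 8.21 and 9.06 (1.8-fold higher). Csf1r, the receptor that macrophages need for survival, read 6.86, 8.37 and 8.27. The lower ones were the scavenger receptor Msr1 (6.70, 8.54 and 7.41, 2.19-fold), the beta-glucan receptor Clec7a (7.76, 8.93 and 7.90, 2.04-fold), the inhibitory Fc receptor Fcgr2b (4.23, 6.81 and 5.55, 2.39-fold) and the growth factor Csf1 itself (6.87, 8.33 and 7.02, 2.48-fold). These 4 were highest at day 2, whereas Adgre1 and Cd68 were highest at day 5.
Lymphocyte genes were mostly dim, with 18 of 29 matched members under the background level. Among the 11 measured, 1 was 2-fold higher and none lower, with a median of 0.08. Cd4, carried by helper T cells and, in rats, by many macrophages, read 7.99, 7.87 and 10 and was 4.38-fold higher. Its neighbours in the list lay closer, from Cd2, a T cell adhesion molecule, at 5.99, 7.02 and 6.33 to the B cell receptor Cd22 at 6.92, 6.47 and 7.07. Only 2 of 17 matched neutrophil genes were measured, among them Mmp9 (gelatinase B) at 5.88, 5.71 and 5.88.
Chemokines, cytokines and their receptors gave 1 of 26 measured members 2-fold higher and 2 lower, and the median difference was 0.00. Ccl6, a macrophage chemokine, read 9.46, 9.32 and 10.91 (3.01-fold higher). Ccl20, which attracts CCR6-bearing lymphocytes, read 6.36, 7.96 and 6.24 (3.29-fold lower), and the other lower one was Csf1.

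Among solute carriers of the proximal tubule the lower members outnumbered the higher ones. Of 55 measured members 13 were 2-fold or more lower and 2 higher, 39 were lower by any amount, and the median was -0.34. Slc13a1, the sodium sulphate cotransporter, read 16.14, 17.89 and 15.69 (4.59-fold lower). Slc17a1, a phosphate and urate transporter, read 14, 14.26 and 12.33 (3.81-fold lower). Slc7a9, the cystine transporter subunit, read 11.38, 11.40 and 9.67 (3.32-fold lower). These 3 ended below the control array.
Abcc2 and Abcb1a, efflux pumps for organic anions and for drugs, read 9.32, 11.08 and 9.22 (3.63-fold lower) and 8.38, 9.45 and 8.05 (2.64-fold lower). The 2 higher carriers were Slc5a10, a sodium-coupled mannose and fructose transporter (8.58, 7.49 and 9.48, 3.97-fold), and Slc22a7, the organic anion transporter OAT2 (7.10, 6.45 and 7.83, 2.60-fold), each with its lowest signal at day 2.
Brush border and other proximal tubule enzymes showed no such shift, with 2 of 59 measured members 2-fold or more higher, 3 lower and a median of 0.08. The higher ones were Khk, ketohexokinase of fructose breakdown (10.49, 9.49 and 10.60, 2.16-fold), and Cyp2e1, an ethanol-inducible cytochrome P450 (11.29, 10.78 and 12.15, 2.58-fold). The lower ones were Arg2, the mitochondrial arginase (9.38, 10.74 and 8.86, 3.68-fold), Sult1b1, a sulphotransferase (11.26, 12.15 and 11.06, 2.13-fold), and G6pc, glucose-6-phosphatase (12.95, 13.02 and 12.02, 2.00-fold).
Enzymes and transporters of ethylene glycol, glyoxylate and oxalate gave 1 of 28 measured members 2-fold higher, which was Cyp2e1, and none lower, with a median of 0.06. Adh1, the alcohol dehydrogenase that starts ethylene glycol oxidation, read 12.40, 10.79 and 10.05 (1.67-fold lower), lowest at day 5. Dao, a peroxisomal D-amino acid oxidase, read 15.72, 14.44 and 15.09 (1.57-fold higher), and Slc26a1, a sulphate and oxalate exchanger, 12.08, 12.11 and 11.36 (1.68-fold lower).

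In the other nephron segments the counts were small, and several are near the share over all genes, 2.26% higher and 3.42% lower. Thick ascending limb and distal tubule markers had 2 of 34 measured members 2-fold or more lower, none higher and a median of -0.04. The 2 were Kng1, given above, and Ptger3, a prostaglandin E2 receptor (8.80, 10.73 and 9.69, 2.06-fold). Calb1, the calcium buffer calbindin of the distal tubule, read 15.43, 14.39 and 15.22 (1.78-fold higher), and the calcium channel Trpv5 8.12, 9.81 and 8.89 (1.89-fold lower).
In the collecting duct list 3 of 39 measured members were 2-fold or more higher, 4 lower, and the median was 0.12. Avpr2, the vasopressin receptor that opens the water pathway, read 6.27, 6.10 and 7.50 (2.64-fold higher). Fxyd4, a modulator of the sodium pump, read 7.61, 7.36 and 8.86 (2.83-fold higher), and Gata3, a collecting duct transcription factor, 9.26, 9.56 and 11.01 (2.73-fold higher). Those 3 were highest at day 5. Besides Sgk1, the lower ones were Oxgr1, the alpha-ketoglutarate receptor of intercalated cells (11.16, 11.01 and 9.34, 3.18-fold), Slc4a9, a bicarbonate transporter of the same cells (11.26, 11.36 and 10.12, 2.36-fold), and Elf3, an epithelial transcription factor (7.33, 9.01 and 7.77, 2.36-fold).
Genes of the inner medulla and of the response to tonicity gave 2 of 21 measured members 2-fold higher and 3 lower, and the median difference was -0.19. Akr1b1, aldose reductase, which makes the osmolyte sorbitol, read 10.17, 10.45 and 11.81 (2.57-fold higher), and Slc14a1, a urea transporter, 5.73, 5.57 and 6.95 (2.60-fold higher). Its relatives Akr1b10 and Akr1b8 went the opposite way, at 9.54, 10.64 and 8.49 (4.44-fold lower) and 4.67, 7.76 and 5.76 (4.0-fold lower); probes of the Akr1b genes can share signal. Cryab, a small heat shock protein that tonicity also induces, read 12.91, 15.15 and 13 (4.44-fold lower).
Claudins, cadherins and keratins gave 2 of 31 measured members 2-fold higher and 1 lower, and the median difference was -0.05: Cdh13, T-cadherin (6.33, 6.02 and 7.21, 2.28-fold), and Krt19 were the higher ones and Cldn2, the cation pore of the proximal tubule's tight junction (8.66, 8.26 and 6.74, 2.87-fold), the lower. Transcription factors of the nephron gave 3 of 35 higher and none lower, with a median of 0.04: Emx2 (9.14, 8.90 and 9.96), Glis2 (12.60, 12.68 and 13.78) and Maf (11.83, 11.38 and 12.41), between 2.04-fold and 2.14-fold. Podocyte genes gave 1 of 17 measured members higher, which was Tcf21, and 2 lower, with a median of 0.15; the lower ones included Magi2, a scaffold of the slit diaphragm (5.83, 6.96 and 5.40, 2.95-fold).
Endothelial genes gave 2 of 26 measured members 2-fold higher and none lower, with a median of 0.10. Igfbp5, an IGF-binding protein, read 15.70, 14.25 and 15.58 (2.51-fold higher), and Aplnr, the apelin receptor, 5.86, 5.18 and 6.62 (at least 2.43-fold higher). In the renin-angiotensin, kallikrein and natriuretic peptide list only Kng1 was 2-fold apart among 16 measured members, and in the prostaglandin list only Ptger3 among 21, with Ptgs2, the inducible cyclooxygenase, at 9.76, 7.28 and 8.25 (1.96-fold higher).

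Growth factor, WNT and Notch genes held single large differences. Igfbp1, a hepatic and renal IGF-binding protein that insulin represses, read 11.85, 12.26 and 9.54 and was 6.59-fold lower. Fgf1, acidic fibroblast growth factor, read 11.77, 12.73 and 11.07 (3.16-fold lower), and Nrg1, a ligand of ErbB receptors, 9.98, 10.48 and 9.33 (2.22-fold lower). Bmp3, a BMP antagonist, read 7.46, 5.77 and 6.84 (2.10-fold higher). In all, and with Igfbp5 and Ctgf among them, 3 of 52 measured growth factor genes were 2-fold higher and 4 lower, and the median difference was 0.16. Of 29 measured WNT and Notch genes 2 were higher and none lower, with a median of 0.05: the receptor Fzd2 (7.40, 7.18 and 8.69, 2.85-fold) and the ligand Wnt5a (6.94, 7.39 and 8.53, 2.20-fold).

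Among redox genes too the lower members outnumbered the higher ones. Of 48 measured redox enzymes and NRF2 targets 8 were 2-fold or more lower and 1 higher, with a median of -0.29. Srxn1, which repairs overoxidised peroxiredoxins, read 7.74, 9.05 and 6.96 (4.26-fold lower). Gpx2, a glutathione peroxidase, read 5.04, 6.86 and 5.34 (2.87-fold lower), right at the background level at day 5. The glutathione transferases Gstp1 and Gstm1 read 11.83, 13.81 and 12.42 (2.62-fold lower) and 9.31, 11.08 and 9.85 (2.35-fold lower). Gsta4, the transferase of lipid peroxidation products, was the higher one at 12.51, 11.83 and 12.85 (2.03-fold). The 4 lower ones named here had their highest signal at day 2. The 8 lower redox genes also include Mt1a and Hmox1, given above, and Hmox1 was highest on the control array.
Heat shock proteins gave 2 of 32 measured members lower, none higher and a median of -0.20; besides Cryab this was Dnajb5, a co-chaperone (7.71, 7.72 and 6.39, 2.51-fold). In the unfolded protein response and ATF4 list 1 of 45 was 2-fold lower and none higher, with 33 lower by any amount and a median of -0.36: Psat1, of serine synthesis, read 14.57, 13.38 and 11.77 (3.05-fold lower). Ribosome biogenesis genes had 5 of 41 lower and none higher, with a median of -0.35. They were the box C/D particle proteins Nop58 (9.65, 11.08 and 9.76, 2.50-fold) and Nop56 (9.81, 10.79 and 9.63, 2.23-fold), the assembly factor Tsr1 (9.24, 10.56 and 9.24, 2.50-fold), Wdr43 of the small subunit processome (10.28, 11.49 and 10.27, 2.33-fold) and the RNA helicase Ddx21 (9.62, 10.34 and 9.28, 2.08-fold). All 5 were highest at day 2, and at day 5 their signals were near those of the control array. Ribosomal proteins themselves had none of 75 measured members 2-fold apart, and a median of 0.12. Proteasome subunits had 1 of 31 lower, Psmd1 (10.58, 11.39 and 10.24, 2.22-fold), with 24 lower by any amount and a median of -0.22.

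Lipid and energy metabolism differed in single enzymes. Some of the counts below are near the share over all genes, 2.26% higher and 3.42% lower. Of 38 measured genes of cholesterol synthesis, uptake and efflux 4 were 2-fold or more lower and 1 higher, with a median of -0.40. The lower ones all act in sterol synthesis: Sc5d (12.72, 12.66 and 11.30, 2.57-fold), Cyp51 (8.83, 9.01 and 7.71, 2.46-fold), Dhcr7 (9.74, 9.44 and 8.22, 2.33-fold) and Msmo1 (10.72, 10.97 and 9.84, 2.19-fold). The higher one was Abca1, which exports cholesterol (7.91, 8.33 and 9.48, 2.22-fold). The 4 enzymes were lowest, and Abca1 highest, at day 5.
Fatty acid oxidation genes gave 2 of 49 measured members higher and 3 lower, and the median difference was -0.07. Acaa2, a mitochondrial thiolase, read 11.48, 10.65 and 11.86 (2.31-fold higher). Plin2, which coats lipid droplets, read 8.13, 9.32 and 7.71 (3.05-fold lower), Pex11a, a peroxisome division factor, 8.58, 9.66 and 8.12 (2.91-fold lower) and Acsl4, a ligase of arachidonate, 11.62, 12.29 and 10.92 (2.58-fold lower).
Glycolysis and hypoxia genes gave 2 of 34 lower, none higher and a median of -0.16. Ndrg1, a hypoxia-induced gene, read 19.15, 19.14 and 16.57 (5.94-fold lower), though its first 2 signals are near the top of the scale, where differences may be compressed. Hif1a, the oxygen-regulated transcription factor, read 11.67, 12.36 and 11.30 (2.08-fold lower). Respiratory chain and ATP synthase genes had none of 61 members 2-fold apart and a median of 0.07. The citric acid cycle list had 1 of 36, Aco1, and a median of -0.20.
Lysosomal genes gave 5 of 46 measured members 2-fold or more lower, none higher and a median of -0.10. Apart from Plin2, which the list also holds, these were proteases: legumain, Lgmn (17.30, 17.40 and 15.98, 2.68-fold), and the cathepsins Ctsd (13.52, 16.69 and 15.31, 2.60-fold), Ctsl (16.89, 17.81 and 16.74, 2.10-fold) and Ctsb (18.39, 18.04 and 16.99, 2.07-fold). Ctsd alone of these stayed well above the control array.
Transporters of other epithelia gave 4 of 24 lower, none higher and a median of -0.38. Slc16a1, the monocarboxylate carrier MCT1, read 9.66, 9.56 and 7.10 (5.50-fold lower). Slc34a2, the phosphate cotransporter of lung and gut, read 8.89, 12.82 and 11.20 (3.07-fold lower), still above the control array. Slc38a3, a glutamine transporter, read 14.88, 14.51 and 13.17 (2.53-fold lower) and the phosphate carrier Slc20a1 12.03, 12.12 and 11 (2.17-fold lower).
In the cytochrome P450 list 2 of 25 were higher and none lower, with a median of 0.19. Cyp1a1, the aryl hydrocarbon receptor's target, read 5.11, 4.77 and 7.14 (at least 3.48-fold higher), and the other was Cyp2e1. Necrosis and inflammasome genes gave 3 of 37 lower and none higher, with a median of -0.07: besides Acsl4, these were Bid, a BH3-only protein (6.80, 7.06 and 5.78, 2.43-fold), and Birc3, an inhibitor of apoptosis (5.33, 6.35 and 5.31, at least 2.01-fold). The S100 and annexin list had 1 of 18 higher, Anxa9 (5.90, 5.49 and 6.61, 2.17-fold), and a median of -0.04, while S100a11, a calcium-binding protein, read 12.07, 14.61 and 14.96 (1.27-fold higher). Crystal-binding and stone matrix genes gave 1 of 21 higher and 3 lower, and the median difference was -0.13. Stab1, a scavenger receptor of endothelium and macrophages, read 5.14, 5.63 and 7.17 (2.91-fold higher). The lower ones were Hmmr and Vcan, given above, and Hyal1, a hyaluronidase (10.89, 10.76 and 9.73, 2.04-fold), and fibronectin, Fn1, read 12.04, 13.58 and 14.55 (1.96-fold higher).

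**Figure D5:**
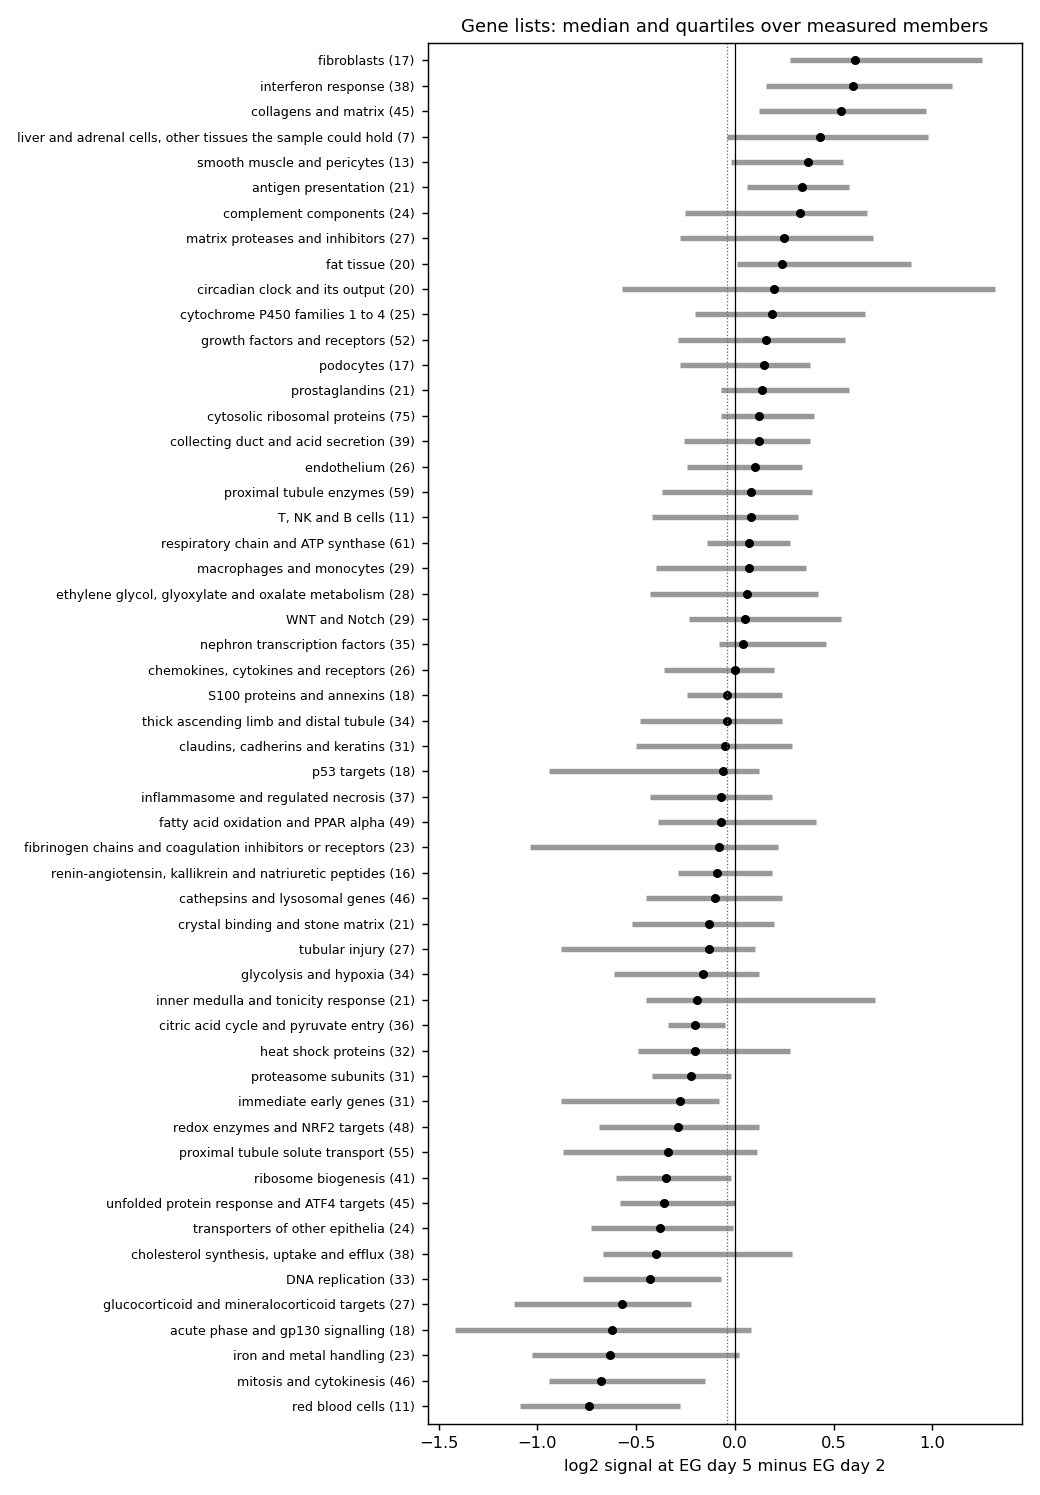
Median (point) and quartiles (bar) of the log2 signal at EG day 5 minus EG day 2 over the measured members of 54 gene lists, with the number measured in parentheses; the dotted line is the median of all compared genes, -0.04. The fibroblast list (0.61), the interferon list (0.60) and the matrix list (0.54) stand at the top and the red blood cell (-0.74) and mitosis (-0.68) lists at the bottom.

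Genes of tissue and cells that a kidney sample can carry along also differed. Fat tissue genes gave 5 of 20 measured members 2-fold or more higher and none lower, with a median of 0.24 and a summed log2 signal of 178.3, 174.8 and 185.3. They were Car3, carbonic anhydrase 3 of fat and muscle (6.71, 5.72 and 9.11, 10.5-fold), Fabp4, the adipocyte fatty acid carrier (7.36, 6.88 and 8.47, 3.01-fold), Cidea, a lipid droplet protein (7.27, 6.47 and 7.85, 2.60-fold), Scd1, a fatty acid desaturase (6.93, 6.27 and 7.58, 2.48-fold), and Thrsp, a lipogenic regulator (6.13, 5.19 and 7.04, at least 3.25-fold). Day 2 was the low array in all 5. Adipoq, adiponectin, read 8.76, 9.14 and 9.81, and Plin1, Lep and Retn of the same list, the last 2 chosen after their values were seen, did not reach the background level. The part of fat tissue in these differences was not tested.
Red blood cell genes gave 3 of 11 measured members lower and none higher, with a median of -0.74 and a summed signal of 112.6, 104.8 and 97.4. Hbb, the beta globin, read 16.11, 14.30 and 12.87 (2.69-fold lower), Hba1, an alpha globin, 15.03, 13.98 and 12.64 (2.53-fold lower) and Hbb-b1 10.58, 9.68 and 8.03 (3.14-fold lower). All 3 were highest on the control array and lowest at day 5, and probes of the globins can share signal. The list's median depended on the background level, being -0.15 with a lower level, the median olfactory receptor signal, and 0.02 with none.
Liver, adrenal and urothelial genes had 14 of 21 matched members under the background level. Of the 7 measured, 2 were higher, Alb (2.23-fold) and Ttr (at least 2.22-fold), none was lower, and the summed signal was 41.9, 41.8 and 45.0.

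Several of the largest single differences belong to no group above. Rfk, riboflavin kinase, which makes the flavin cofactor FMN, read 12.13, 13.45 and 10.98 and was 5.54-fold lower. The uncharacterised gene RGD1309903 read 12.02, 10.97 and 8.66 (4.96-fold lower). Olr1, the scavenger receptor for oxidised LDL and no olfactory receptor, read 5.12, 8.85 and 5.22, at least 11.4-fold lower. Rfk and Olr1 were highest at day 2.
Rasd1, a steroid-induced small G protein, read 5.08, 7.05 and 4.66 (at least 3.27-fold lower), and Eepd1, an endonuclease-family protein, 6.14, 7.08 and 5.04 (at least 3.34-fold lower). On the higher side, Tril, a Toll-like receptor accessory protein, read 6.29, 5.52 and 7.65 (4.38-fold higher), and Alx1, a homeobox gene, 7.31, 7.86 and 9.82 (3.89-fold higher). LOC685828 read 8.84, 5.63 and 8.13 (5.66-fold higher), with day 2 alone near the background level; its second cluster was under that level on all 3 arrays. Epm2a, the glycogen phosphatase laforin, read 6.17, 4.81 and 7.18 (at least 3.58-fold higher), Gprin3 6.07, 5.02 and 6.92 (at least 2.99-fold) and Ceacam20, an adhesion molecule of the CEA family, 5.45, 5.04 and 6.51 (at least 2.25-fold).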

How the data were processed

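Kidney RNA of 3 male rats, 1 per group, was measured on Clariom S rat arrays. The authors reduced the probes to 1 log2 signal per transcript cluster with Transcriptome Analysis Console, per the submitters' processing notes; per the file headers, the annotation was that of build rn6 and no filter was set. The version of the program and how arrays were normalized were not given in the sources. The 2 deposited tables held identical log2 values (69564 of 69564). The values reach 19.93 and 189 genes exceed 16, so bright differences may be compressed or stretched.

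Of 23188 clusters, 21475 named 1 gene and were used. Clusters naming several genes (1673), none (13) or a date made from a symbol by a spreadsheet (27) were left out. The background set was the genes whose symbols start with Olr, less the LDL receptor Olr1. With 1 array per group no test was made, and the number of arrays limits the precision.

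The members and the 55 gene lists (1856 genes, 47 unmatched) were chosen with earlier results of these data known. Genes are named where they are among the 15 largest differences each way on both arrays, the 8 largest lower bounds each way, the 6 largest of a list, or listed members in a 2-fold count of 5 or fewer, plus Havcr1, Lcn2, Clu, Spp1, the fibrinogen chains, C3, Umod, Gapdh and Actb, and the markers of cell types; 323 were named by this rule without the markers. Motifs were searched on both strands of 250 bases upstream of 33469 RefSeq starts (GRCr8). Python 3.11.15 with pandas 2.3.3, numpy 2.4.6 and matplotlib 3.10.9 was used, and the counting was checked on simulated data. Alternatives were 3 other background levels, median centring, quantile normalization and the mean of a gene's clusters. Some results are not reported here.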

Additional observations from a re-analysis of the deposited data

Results flagged for a closer look

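For 6 of the 323 genes named by the rule above, the 2 EG arrays lay on opposite sides of the control array, each by 2-fold or more. Genes outside those 323 were not searched for this order. The difference between the days was not tested, and each sentence sets both days against the same control array. Dbp was below the control at day 2 and above it at day 5, with a day 5 minus day 2 difference of 3.84 log2. Islr showed the same order with 2.63, and Rsad2 with at least 2.17, since its day 2 signal was under the background level. In the other direction, Sgk1 was above the control at day 2 and below it at day 5 with a difference of -2.97, Rfk with -2.47 and Akr1b10 with -2.15. Akr1b10 probes can share signal with those of its relatives.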

How the results depend on the processing

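No paired analysis was possible because each group is 1 array. Without a background level 509 genes were 2-fold or more higher, against 299, which adds differences between dim signals. The red blood cell list's median, -0.74, became -0.15 with a background of 3.75 log2, the median olfactory receptor signal, and 0.02 without a level, as 10 of its matched members are dimmer than 5.34. No difference of a named gene that was 2-fold or more changed sign under the 6 alternatives, and the other list medians and counts of all genes kept within the limits set. Counts within lists were less steady: of 55 lists, the 2-fold higher count moved by over 1.5 times in 13 under quantile normalization, 9 with the level at the median of all values, 8 with none and 7 at the lower level, and the 2-fold lower count in at most 6. Over all 6, the 2-fold higher count ran from 206 to 509, the lower from 357 to 595, and the share of higher genes from 34.9% to 48.3%, highest under quantile normalization. A higher level, the median of all values, moved 48 of 323 named differences by over 1.5 times without a change of sign among those 2-fold or more apart. Averaging a gene's clusters took Serpina3n to -2.61, Sparcl1 to 0.47 and LOC685828 to 0.46. The array number, signals near background and signals near the top of the scale limit what can be read.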

Other observations

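Clusters naming several genes were kept out of the comparison, and 876 of them were measured on 1 or both EG arrays, 23 of them 2-fold or more higher and 20 lower at day 5. Those below, with signals in the order control, day 2, day 5, were chosen after their values were seen. A cluster naming Mfap4 and LOC102553715 read 8.21, 7.33 and 10.68, a difference of 3.35, beside 3.18 for the cluster naming Mfap4 alone. A cluster naming A2m and LOC100911545 read 3.5, 5.75 and 7.30. The cluster of Tef, a clock output gene of the same family as Dbp, with LOC100910463 read 6.65 at day 2 and 8.50 at day 5, a difference of 1.85, with 7.34 on the control array. A cluster naming Kng1l1 and Kng1 read 6.15, 7.98 and 6.26.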
